A study of Mus musculus with 10 samples.

Results

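The unfolded protein response is the programme by which a cell reacts to misfolded protein in the endoplasmic reticulum (ER), and 10 of its genes were read in sorted mouse microglia, the resident macrophages of the brain. The genes were taken by name from the count tables of all 10 libraries: the sensors Ern1 and Atf6, the transcription factor Xbp1, the chaperones Hspa5, Hsp90b1, Calr and Sdf2l1, the disulfide isomerases Pdia4 and Pdia6, and Herpud1, a component of ER-associated degradation. They are 10 of 18292 gene symbols in the tables, and all 10 passed the filter on low counts that left 12157 genes for testing. Microglia were isolated from adult C57BL/6 mouse brain, from mixed glial cultures of neonatal cortex after 3 weeks (in vitro), and from cultured brain slices of neonatal pups after 1 day, 1 week or 3 weeks, with 2 libraries in each of the 5 groups. All cells were sorted live as CD11b high and CD45 intermediate, and the labels list no drug or genetic change for any group. Several slices were pooled where needed, the in vitro cells were collected from the culture medium, and the slice and in vitro media both contained serum, so age at isolation and medium differ between adult and cultured cells and cannot be told apart from culture itself. The comparisons ask how the folding machinery of the ER differed between cultured and freshly isolated microglia.

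In an unstressed cell the chaperone BiP, the product of Hspa5, binds the sensors in the ER membrane, and unfolded protein draws it away. Ern1 (the sensor IRE1) then splices the Xbp1 messenger, Atf6 is cut into an active factor, and the kinase PERK (Eif2ak3) raises translation of ATF4. The factors XBP1 and ATF6 act on the promoters of chaperones and degradation genes, while ATF4 acts on genes of amino acid supply and, with CHOP (Ddit3), on genes of prolonged stress. The libraries counted the 3' ends of transcripts, so spliced and unspliced Xbp1 were counted together.

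The ER stress response element is CCAAT and CCACG with 9 free bases between them, and the ER stress response element II is ATTGG and CCACG with 1 free base between them, both bound by ATF6 and NF-Y. Exact matches on either strand were searched in the 250 bases before each gene's start in the RefSeq promoter table (GRCm38.p6), which held 9 of the 10 genes, all but Atf6. The first element was found in 4 of the 9 genes and in 0.113% of all 32851 promoters of the same length. The second was found in Herpud1 and in 0.0304% of all promoters. Both elements were known motifs of this response, and the genes were chosen as its members. The shares of all promoters are therefore given as a description and not as a test. The motifs do not overlap in these promoters, and another motif of this response, TGACGTGG, bound by XBP1 and ATF6, was in none of the 9 genes and in 0.563% of all promoters. The matches are shown because Hspa5, Calr, Hsp90b1, Pdia6 and Herpud1 did not move together in culture, as the levels below show. Each line gives 29 bases, 5′ to 3′ on the strand of the gene, with the fixed letters of the motif in capitals.
Hspa5: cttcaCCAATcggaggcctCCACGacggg
Hsp90b1, distal: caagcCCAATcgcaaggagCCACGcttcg
Hsp90b1, proximal: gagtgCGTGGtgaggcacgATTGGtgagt
Calr: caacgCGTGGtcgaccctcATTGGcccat
Pdia6: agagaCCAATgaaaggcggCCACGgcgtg
Herpud1: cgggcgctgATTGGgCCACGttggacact

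The Hspa5 site lies at chr2:34772020-34772048 on the plus strand and its motif begins 65 bases before the RefSeq start. GENCODE M21 begins the Hspa5 gene upstream of this site, so the site lies before the start in RefSeq and inside the gene in GENCODE. The Hsp90b1 sites lie at chr10:86705633-86705661 and chr10:86705528-86705556 on the minus strand, with motifs that begin 212 and 107 bases before the start. The Calr site lies at chr8:84847070-84847098 on the minus strand and the Pdia6 site at chr12:17266486-17266514 on the plus strand. The Herpud1 site lies at chr8:94386368-94386396 on the plus strand, 52 bases before the start. In Calr and in the proximal site of Hsp90b1 the match is on the strand opposite to the gene. A match says that these letters are present and is not a measured binding site. Among the genes of the pathway lists described further on, 86 had a promoter entry and 6 held the first element (Canx, Creld2, Derl3, Dnajc3, Ero1b and Syvn1).

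The kept cells numbered 19059 of 19637 barcodes, with 61 to 3799 cells per library. Total counts of unique molecular identifiers (UMIs) per library ran from 385373 for slice 1 week replicate 2 to 39689540 for in vitro replicate 2, and the median per cell lay between 1858 (adult replicate 2) and 13966 (in vitro replicate 2). Libraries shared at most 21 cell barcodes. All 8 microglia markers were detected in every library, but their summed level was 41962 and 43858 CPM (counts scaled to a common library total) in adult, 24451 and 28475 at slice 3 weeks, 9637 and 10987 in vitro, and 7120 and 7840 at slice 1 day. The summed level of 5 neutrophil markers was 7309 and 18728 CPM at slice 1 day and 32591 and 1016 CPM at slice 1 week, against at most 191 CPM in the other 6 libraries. All 3 monocyte markers, Ccr2, Ly6c2 and Plac8, summed to 121 and 157 CPM at slice 1 day and 153 and 0 CPM at slice 1 week, against at most 6.45 CPM elsewhere. Cells in which S100a8 and S100a9 made up at least 4% of UMIs, a limit chosen after the values were seen, were 58 of 518 and 107 of 1014 at 1 day, 23 of 148 and 1 of 61 at 1 week, and 0 in every other library. The 10 genes together stood at 495 to 1190 CPM in those cells and at 2867 to 4208 CPM in the other cells of the same libraries, so the fits, the spread over single cells and the shares of cells with Herpud1 or high Hspa5 were also taken without them. Cells with 2 or more UMIs of the monocyte markers were 52 and 164 at 1 day, 20 and 0 at 1 week, and 0 to 11 in the other libraries, and 4, 63 and 16 of those at 1 day and 1 week were also rich in S100a8 and S100a9. The members stood at 2294 and 3302 CPM in the remaining ones at 1 day, against 4184 and 4317 CPM in the cells with neither mark. Erythrocyte markers summed to 1179 CPM in adult replicate 1 and 2300 CPM in slice 1 day replicate 1, and were at or under 0.65 CPM elsewhere.

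Levels are given as CPM of the summed UMIs of a library, scaled with TMM factors, and fold changes come from edgeR's quasi-likelihood test with Benjamini-Hochberg adjustment over all 12157 genes. A gene was called at an adjusted p under 0.05 and a change over 1.5-fold. In a sum of cells, fewer cells with a transcript and less of it per cell cannot be told apart, and single cells are taken up further on. All 4 comparisons with adult use the same 2 adult libraries. Of the 10 genes, 0 were higher and 4 lower in vitro than in adult, where 22.4% of all genes were called higher and 28.5% lower. At slice 1 day 3 were higher and 2 lower, against 24.9% and 25.3% of all genes. At slice 1 week 1 was higher and 3 lower, against 15% and 13.6%. At slice 3 weeks 0 were higher and 2 lower, against 17.9% and 17.5%. In each of the 6 pairs of cultured groups that follow, 0 members were higher in the group named first than in the group named second. In vitro, 4 were lower than at slice 3 weeks, 4 than at slice 1 day and 2 than at slice 1 week, where 19.9%, 18.6% and 10% of all genes were lower and 13.3%, 13.3% and 6.2% higher. At slice 3 weeks 1 was lower than at 1 day (12.8% of all genes, with 13.9% higher) and 1 than at 1 week (3.49%, with 2.23% higher). Slice 1 week and slice 1 day had 0 members called by edgeR, 3 of them at an unadjusted p under 0.05, against 4.91% and 5.25% of all genes. As a group the 10 genes had median log2 differences from adult of -0.40 (in vitro), 0.14 (1 day), -0.26 (1 week) and 0.10 (3 weeks), beside -0.11, -0.061, -0.085 and -0.032 over all genes. With library size alone as the scaling, which lowered the median of all genes by 0.12 to 0.30 against adult, 2017 genes were higher and 4718 lower in vitro, in place of 2719 and 3461, with like shifts at 1 week (1518 and 2507, in place of 1822 and 1650) and 3 weeks (1705 and 3059, in place of 2182 and 2126).

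**Figure D1:**
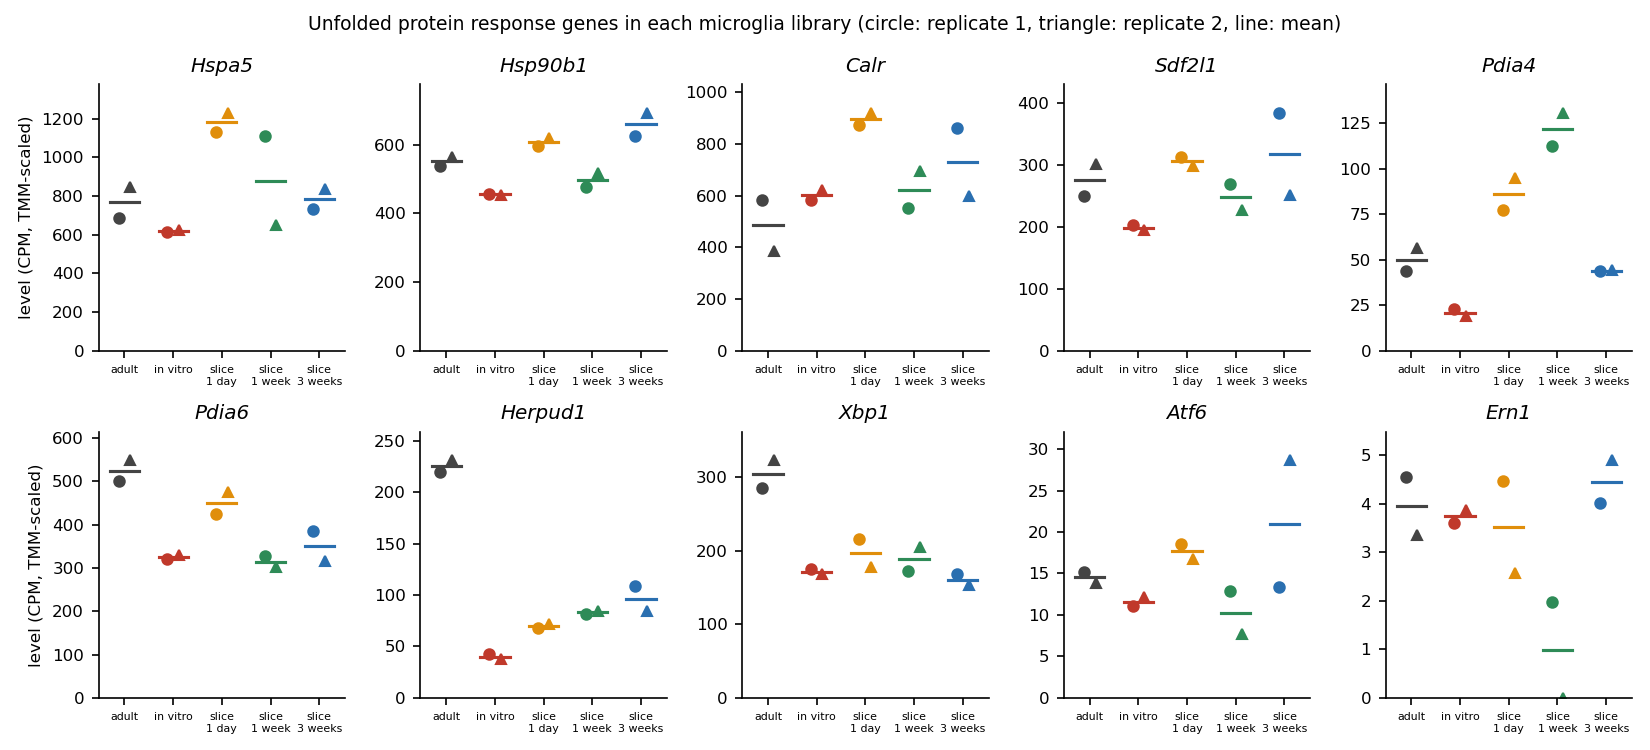
Level of each gene (CPM, TMM-scaled, linear axes that start at 0) in the 10 libraries, with a circle for replicate 1, a triangle for replicate 2 and a line at the mean of each group. Herpud1 and Xbp1 lie lower in all 8 cultured libraries than in both adult libraries, Hspa5 is highest at slice 1 day replicate 2 (1229 CPM), and Pdia4 runs from 18.8 CPM in vitro to 130.5 CPM at slice 1 week. The levels are relative to all counts of a library.

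The directions are relative to all UMIs counted in a library, and in vitro cells held more UMIs than adult cells. For replicates 1 and 2 the medians were 12858 and 13966 in vitro, against 3257 and 1858 for adult cells. Whether this gap came from RNA content or from the depth of capture and sequencing was not tested. The per-cell values that follow are therefore counts of UMIs and not amounts of RNA. Counted per cell with no scaling for depth, the median of all genes moved up by 2.16 on the log2 scale in vitro, 1.55 at 1 day, 1.19 at 1 week and 1.09 at 3 weeks, all against adult. On that scale the 10 genes had a median of 1.78 beside 2.04 for all genes in vitro, 1.71 beside 1.49 at 1 day, 0.92 beside 1.10 at 1 week and 1.18 beside 1.05 at 3 weeks. Members reported below as lower than adult therefore had positive differences per cell, except Herpud1, whose per-cell difference was -0.30, -0.12, -0.23 and -0.099 in the same order and was not called.

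Hspa5, which encodes BiP, the main chaperone of the ER lumen and the keeper of the sensors, was at 688 and 848 CPM in adult, 1133 and 1229 CPM at slice 1 day, 1112 and 647 CPM at slice 1 week, 733 and 834 CPM at slice 3 weeks, and 612 and 622 CPM in vitro. Both slice 1 day libraries lay above all adult, in vitro and slice 3 weeks libraries, and the slice 1 week libraries lay on either side of the adult range. Hspa5 was higher at slice 1 day than in adult (log2 fold change 0.62, SE 0.22, edgeR adjusted p = 0.037). The call was lost without adult replicate 1 (0.52, adjusted p = 0.16), adult replicate 2 (0.78, adjusted p = 0.0501), slice 1 day replicate 1 (0.68, adjusted p = 0.077) or slice 1 day replicate 2 (0.62, adjusted p = 0.12), with library size alone as the scaling (0.49, adjusted p = 0.067), and with the study label as a covariate (0.51, adjusted p = 0.10). In vitro Hspa5 was lower than at slice 1 day (-0.94, SE 0.23, adjusted p = 0.0089), a call lost without slice 1 day replicate 2 or either in vitro replicate, and the difference was -0.83 without slice 1 day replicate 2. Slice 3 weeks was below slice 1 day without reaching the limit (-0.59, adjusted p = 0.070), and was called without either slice 1 week library, with library size alone, with the DESeq2 test, in cells thinned to 1800 UMIs or without the cells bearing neutrophil or monocyte markers (-0.59 to -0.71). Against adult Hspa5 was not called in vitro (-0.31, adjusted p = 0.25), at 1 week (0.20, adjusted p = 0.54) or at 3 weeks (0.028, adjusted p = 0.94).

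Calr, which encodes calreticulin, a lectin chaperone of newly made glycoproteins, stood at 582 and 387 CPM in adult and at 874 and 919 CPM at slice 1 day. It was 861 and 598 CPM at 3 weeks, 550 and 693 CPM at 1 week, and 584 and 619 CPM in vitro. The slice 1 day libraries were the highest of the 10, and the adult libraries were wider apart than those of slice 1 day or in vitro. Calr was higher at slice 1 day than in adult (0.89, SE 0.23, edgeR adjusted p = 0.0075), a call lost without adult replicate 2 (0.62, adjusted p = 0.065). The differences from adult at 3 weeks (0.59, edgeR adjusted p = 0.061), 1 week (0.36, adjusted p = 0.28) and in vitro (0.31, adjusted p = 0.26) were not called. Without adult replicate 1 it was called higher in vitro (0.74) and at 3 weeks (0.97), and without slice 3 weeks replicate 2 it was called higher at 3 weeks. With the study label as a covariate Calr was called higher in vitro (0.62, adjusted p = 0.011), at 1 week (0.66, adjusted p = 0.018) and at 3 weeks (0.597, adjusted p = 0.010). At 3 weeks it was also called with DESeq2 size factors, the DESeq2 test or no filter on low genes (0.63 to 0.66). Leaving out the cells rich in S100a8 and S100a9 also brought the 3 weeks difference just past the limit (0.59, adjusted p = 0.0497) and made in vitro lower than slice 1 day (-0.63, adjusted p = 0.041).

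Hsp90b1, which encodes the ER paralogue of HSP90 (GRP94), stood at 538 and 566 CPM in adult and 596 and 620 CPM at slice 1 day. It was 627 and 693 CPM at 3 weeks, 478 and 517 CPM at 1 week, and 458 and 455 CPM in vitro. The in vitro libraries were the lowest and the slice 3 weeks libraries the highest of the 10. No difference from adult passed (log2 fold changes of -0.27 to 0.26, edgeR adjusted p of 0.10 to 0.44), and the difference between in vitro and slice 3 weeks passed on p but was under 1.5-fold (-0.53, SE 0.13, adjusted p = 0.010).

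Sdf2l1, which encodes a partner of BiP, ranged from 195 CPM in vitro to 384 CPM at slice 3 weeks. It was called in neither direction against adult (-0.47 to 0.21). Sdf2l1 was lower in vitro than at 3 weeks (-0.68, SE 0.20, edgeR adjusted p = 0.021), a call lost without slice 3 weeks replicate 1 (-0.26) or either in vitro replicate, with no filter on low genes (-0.58) or with the study label as a covariate (-0.58). Against slice 1 day the difference was -0.62 (SE 0.20, adjusted p = 0.033), and this call held in only 1 of the 10 single omissions, without adult replicate 2, and was lost with no filter on low genes, with all barcodes, without both slice 1 week libraries or without the cells high in Hspa5 (-0.40 to -0.56).

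Pdia4 and Pdia6 form and rearrange disulfide bonds in proteins that enter the ER, and they moved differently. Pdia4 stood at 43.9 and 56.2 CPM in adult, 77.32 and 94.995 CPM at slice 1 day, 113 and 130.5 CPM at slice 1 week, 43.9 and 44.2 CPM at slice 3 weeks, and 23.1 and 18.8 CPM in vitro. The groups did not overlap except for adult and slice 3 weeks, with slice 1 week highest and in vitro lowest. Against adult Pdia4 was higher at 1 day (0.79, SE 0.17, edgeR adjusted p = 0.0029) and at 1 week (1.27, SE 0.19, adjusted p = 0.00083) and lower in vitro (-1.25, SE 0.17, adjusted p = 0.00014). By 3 weeks it was lower than at 1 day (-0.97, SE 0.17, adjusted p = 0.0025) and than at 1 week (-1.45, SE 0.19, adjusted p = 0.0032), and it did not differ from adult beyond the spread (-0.18, adjusted p = 0.43). Of all members and pairs of groups, the difference in Pdia4 between in vitro and slice 1 week was the widest (-2.52, SE 0.20). The slice 1 week levels rest on 114 and 51 UMIs, of which 30 and 11 were in a single cell of each library. In cells thinned to 1800 UMIs each, Pdia4 was at 71.9 and 85.5 CPM at 1 week against 46.3 and 62.3 CPM in adult, and the call at 1 week was lost (0.67, SE 0.34, edgeR adjusted p = 0.22), while those at 1 day (0.81) and in vitro (-1.11) held. The thinned levels at 3 weeks were 53.1 and 44.4 CPM, closer to those at 1 week than without thinning. Without the cells high in Hspa5, described further on, the call at 1 day against adult was lost (0.38). The call of 3 weeks against 1 day was lost without these cells as well.

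Pdia6 stood at 500 and 549 CPM in adult, 424 and 475 CPM at 1 day, 327 and 302 CPM at 1 week, 385 and 316 CPM at 3 weeks, and 320 and 329 CPM in vitro. Every cultured library was below both adult libraries. Pdia6 was lower than in adult at 1 week (-0.73, SE 0.15, edgeR adjusted p = 0.0056) and in vitro (-0.69, SE 0.15, adjusted p = 0.0026), although the in vitro call was lost in 7 of the 10 single omissions, those of either in vitro replicate, slice 1 day replicate 2 and each slice 1 week and slice 3 weeks library (smallest change -0.55). It was also lost with no filter on low genes, with all barcodes or without both slice 1 week libraries (-0.52 to -0.58). At 3 weeks the difference was -0.58 (adjusted p = 0.011), just under 1.5-fold, and without adult replicate 1 or slice 3 weeks replicate 1 it was called.

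Herpud1, which helps to carry misfolded protein out of the ER for degradation, had the largest fitted change against adult of the 10 genes in vitro, at 1 day and at 3 weeks, and at 1 week Ern1, which was not called, had a larger one (-1.50, against -1.44 for Herpud1). Its level was 219 and 231 CPM in adult, 109 and 84.5 CPM at 3 weeks, 82.0 and 84.4 CPM at 1 week, 67.6 and 72.2 CPM at 1 day, and 42.8 and 37.6 CPM in vitro. Each cultured library was below both adult libraries. The difference from adult was -2.49 in vitro (log2, SE 0.16, edgeR adjusted p = 6.8e-07), -1.69 at 1 day (SE 0.16, adjusted p = 1.5e-05), -1.44 at 1 week (SE 0.17, adjusted p = 0.00021) and -1.22 at 3 weeks (SE 0.15, adjusted p = 0.00017). In vitro it was also lower than at slice 1 day (-0.80, SE 0.15, adjusted p = 0.0027), slice 1 week (-1.05, SE 0.17, adjusted p = 0.0028) and slice 3 weeks (-1.26, SE 0.15, adjusted p = 0.00016). The difference from slice 1 day was not called without in vitro replicate 2 (-0.63), nor without the cells high in Hspa5, described further on. After cells were thinned to 1800 UMIs each, Herpud1 was seen in 34.9% and 35.5% of adult cells, 9.76% and 10.6% at 1 day, 11.5% and 13.5% at 1 week, 17.1% and 14.4% at 3 weeks, and 6.87% and 6.53% in vitro. Without the cells rich in S100a8 and S100a9 the thinned shares were 10.4% and 10.5% at 1 day and 12.9% and 13.7% at 1 week. Before thinning the shares were 51.6% and 37.6% in adult and 37.0% and 34.4% in vitro, where cells held more UMIs. Thinning left out 413 and 1618 adult cells, 0 in vitro cells, 23 and 51 at 3 weeks, 26 and 0 at 1 day, and 9 and 9 at 1 week.

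Xbp1, the factor made active by IRE1, stood at 286 and 323 CPM in adult, 217 and 179 CPM at 1 day, 172 and 205 CPM at 1 week, 169 and 153 CPM at 3 weeks, and 175 and 169 CPM in vitro. All 8 cultured libraries were below both adult libraries, and the cultured groups overlapped or lay close together. Relative to adult the log2 fold change was -0.92 at 3 weeks (SE 0.15, edgeR adjusted p = 0.0010), -0.83 in vitro (SE 0.15, adjusted p = 0.0010), -0.71 at 1 week (SE 0.16, adjusted p = 0.0087) and -0.62 at 1 day (SE 0.15, adjusted p = 0.0060). The 1 day difference lies near the 1.5-fold limit and was called in only 2 of the 10 single omissions, without adult replicate 1 or slice 1 day replicate 1, with values of -0.43 to -0.77. The 1 week call was lost without slice 1 week replicate 1 (-0.55). The 1 day call was also lost with DESeq2 size factors or the DESeq2 test, with all barcodes, in thinned cells or without both slice 1 week libraries (-0.52 to -0.58). No pair of cultured groups differed in Xbp1.

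Atf6 and Ern1, the sensors, were counted sparsely. Atf6 rested on 3 to 615 UMIs per library and ranged from 7.68 CPM at slice 1 week replicate 2 to 28.6 CPM at slice 3 weeks replicate 2, whose partner library was at 13.3 CPM. No difference of Atf6 from adult passed the test (edgeR adjusted p of 0.16 to 0.61). Its lower level in vitro than at 3 weeks (-0.89, SE 0.29, adjusted p = 0.033) rests on slice 3 weeks replicate 2 and was -0.14 without it, and the call was also lost without adult replicate 1, slice 1 day replicate 2, or either replicate of in vitro or slice 1 week, and in thinned cells (-0.80). Without slice 3 weeks replicate 1, Atf6 was called higher at 3 weeks than in adult (1.01). Ern1 rested on 0 to 138 UMIs per library, or 0 to 4.89 CPM, and was called in none of the 10 pairs of groups. In slice 1 week replicate 2, where Ern1 had 0 UMIs, the total allows up to 7.78 CPM (3 counts, before TMM scaling), so a difference was not detectable at this depth.

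**Figure D2:**
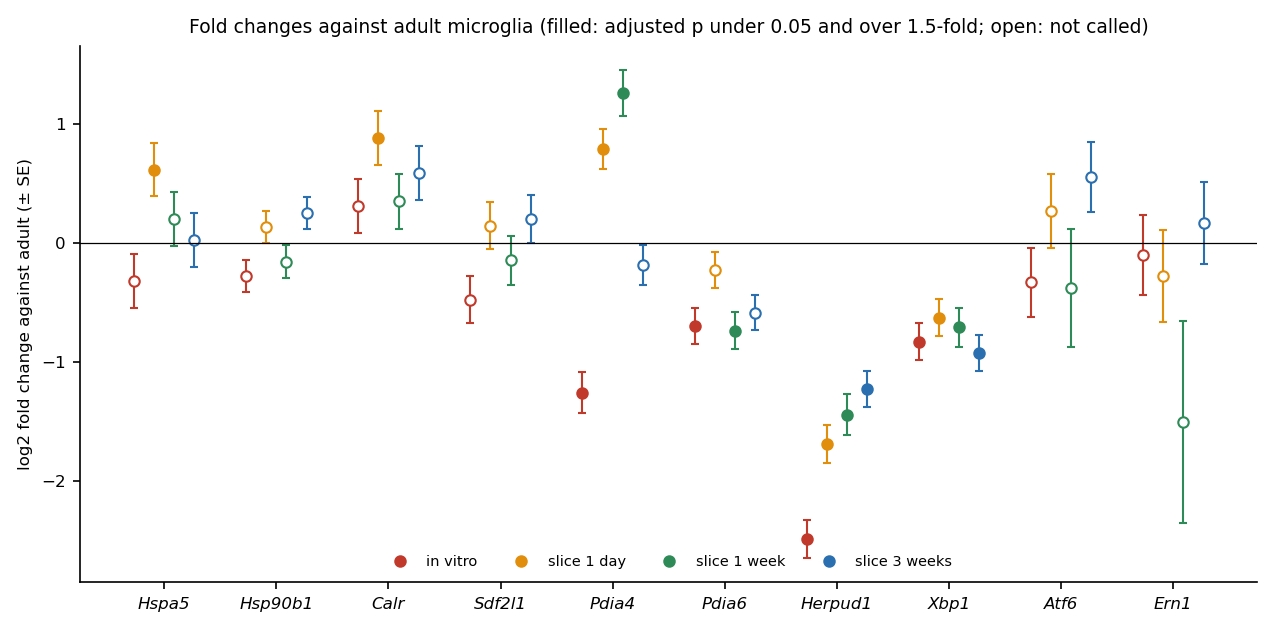
Log2 fold change of each gene against adult with its SE (edgeR, TMM scaling), for in vitro (red), slice 1 day (orange), slice 1 week (green) and slice 3 weeks (blue), with filled points for called genes. Herpud1 and Xbp1 lie below 0 in all 4 groups and Pdia4 runs from -1.25 in vitro to 1.27 at slice 1 week. Counted per cell without scaling for depth, the points of Xbp1, and those of Pdia4 in vitro and at 3 weeks, lie above 0.

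Ordered by level, the groups differed at only a few steps. For Herpud1 adult was above slice 3 weeks and slice 1 day above in vitro (edgeR adjusted p = 0.00017 and 0.0027), while slice 3 weeks, 1 week and 1 day did not differ as neighbours. For Pdia4 the steps from slice 1 day to adult and from slice 3 weeks to in vitro passed (adjusted p = 0.0029 and 0.00088), and for Xbp1 the step from adult to slice 1 day. Without the cells high in Hspa5, the calls of Herpud1 in vitro against slice 1 day and of Pdia4 at slice 1 day against adult were lost. For Hspa5, Calr, Hsp90b1, Sdf2l1, Pdia6, Atf6 and Ern1 no neighbouring groups differed beyond their spread.

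Across the 10 libraries the members did not share a single pattern. The Pearson correlation of each gene's centred log2 level with the mean of the others is given as a description over 10 libraries in 5 groups. Ern1 was left out of that mean, because its 0 UMIs in slice 1 week replicate 2 put it at -5.92 there, after centring, and moved the mean of all members in that library from -0.057 to -0.64. The correlation was 0.60 to 0.73 for Hspa5, Pdia6, Hsp90b1 and Sdf2l1, 0.47 for Herpud1, 0.399 for Pdia4, 0.34 for Xbp1, 0.22 for Atf6 and -0.0031 for Calr. With Ern1 in the mean it was 0.64 for Atf6 and -0.11 for Pdia4. Of 3909 other genes whose log2 CPM averaged 5 or more, the 8 closest to the mean of all 10 members were Creb3 (r = 0.97), Ilf2, Ube2g1, Zmpste24, Srsf11, Smg9, Tmem11 and Scfd1 (r = 0.93), but 0 of these were among the 8 closest without Ern1, where Creb3 ranked 300, so the list follows a count that was not detected. The 10 points share their groups and are not independent.

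The spread of the response among single cells differed between groups. In cells thinned to 1800 UMIs the 10 genes together gave a median of 6 UMIs per adult cell and 4 and 5 per slice 1 day cell, while the 99th percentile was 15 and 16 UMIs in adult and 56.9 and 75.9 UMIs at slice 1 day. The ratio of variance to mean was 1.57 and 1.57 in adult, 2.05 and 2.09 in vitro, 2.96 and 3.57 at 3 weeks, 13.7 and 17.2 at 1 week, and 14.9 and 23.4 at 1 day. At 1 day the mean per cell was 6.68 and 7.57 UMIs, against 6.16 and 6.67 in adult, while the median was lower than in adult. These slice values include the cells rich in S100a8 and S100a9. Without them the median at 1 day was 5 UMIs in both libraries, the mean 7.25 and 8.22 UMIs, the 99th percentile 61.7 and 81.6 UMIs, and the ratio of variance to mean 14.7 and 23.5, with ratios of 13.6 and 17.1 at 1 week.

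Hspa5 was then read cell by cell. Cells in which Hspa5 held at least 0.5% of UMIs, a limit set after the values were seen, numbered 16 of 518 (3.09%, exact 95% interval 1.78 to 4.97) and 40 of 1014 (3.94%, 2.83 to 5.33) at slice 1 day. They were 3 of 3799 and 8 of 3527 in adult, 0 of 2417 and 1 of 2682 in vitro, 5 of 148 and 1 of 61 at 1 week, and 3 of 1153 and 36 of 3740 (0.963%) at 3 weeks. The share in in vitro replicate 1 allows up to 0.152% as the upper bound of its interval. At slice 1 day few cells lay near the limit, with 0 and 5 within 0.1 percentage points below it and 0 and 3 above it, whereas at slice 3 weeks replicate 2 there were 26 below and 11 above. After thinning to 1800 UMIs the shares were 3.25% and 4.14% at 1 day, 0.0295% and 0% in adult, 0% and 0.0373% in vitro, and 0.620% and 1.63% at 3 weeks. No adult cell exceeded 1% Hspa5, and 9 and 27 slice 1 day cells did, up to 4.57%. Without the cells rich in S100a8 and S100a9 the unthinned shares at 1 day were 3.48% and 4.41%. The intervals cover counting error only.

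**Figure D3:**
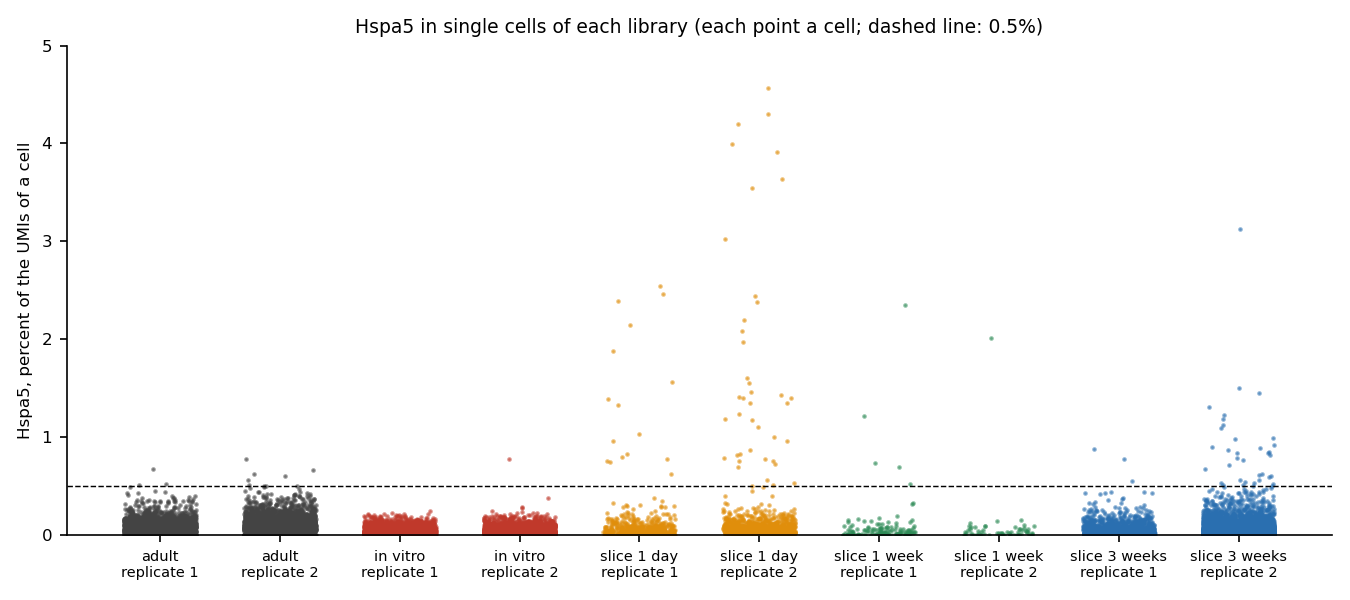
Share of each cell's UMIs that came from Hspa5 (percent, linear axis), with each point a kept cell and libraries side by side. The cloud of most cells lies under the dashed line at 0.5% in every library, and the cells above it number 16 and 40 at slice 1 day against 3 and 8 in adult and 0 and 1 in vitro.

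The cells high in Hspa5 carried 38.4% and 37.8% of all Hspa5 UMIs at slice 1 day, 60.8% and 31.6% at 1 week (5 cells and 1 cell), and 4.43% and 6.83% at 3 weeks. At slice 1 day they also carried 28.3% and 43.2% of Herpud1 UMIs, 28.2% and 24.9% of Hsp90b1, 27.1% and 28.4% of Pdia4, and 11.8% and 10.5% of Calr, but only 4.11% and 5.31% of Xbp1. Their median depth was 8456 and 5924 UMIs, against 6384 and 8420 in the other cells of the same libraries, and their median share of mitochondrial UMIs was 0.541% and 0.457%, against 1.13% and 1.10%. None of them was among the cells rich in S100a8 and S100a9. Microglia markers were lower in them, with C1qa at 869 and 945 CPM against 3198 and 2826 CPM, Csf1r at 303 and 218 CPM against 686 and 509 CPM, and Tmem119 at 0 UMIs in both libraries. The part of these depth and marker differences in the result was not tested.

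Members other than Hspa5 differed from gene to gene in these cells, and 4 of the 9 were over 2-fold higher in all 3 libraries examined. In slice 1 day replicate 1, slice 1 day replicate 2 and slice 3 weeks replicate 2, the 3 libraries with at least 10 such cells, the log2 difference from the other cells of the library, on CPM + 20, was 3.37, 3.31 and 1.25 for Hsp90b1. The same differences were 3.02, 4.04 and 0.72 for Herpud1, 2.99, 3.30 and 0.77 for Pdia4, 2.56, 2.61 and 1.08 for Sdf2l1, 2.32, 2.53 and 1.57 for Pdia6, and 1.85, 1.84 and 1.08 for Calr. Atf6 (0.96, 1.23 and 0.33), Xbp1 (0.22, 0.73 and 1.29) and Ern1 (0.18, 0.25 and 0.43) differed less at slice 1 day, while at slice 3 weeks Xbp1 lay above all of these but Pdia6. The high cells were chosen by Hspa5, cells of a library are not replicates, and these values are a description with no test.

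Among 7232 genes at 20 CPM or more, 1.09% were over 2-fold higher in the high cells of all 3 libraries. The first of the non-members, ranked by the lowest of the 3 differences, were Ddit3 (3.45, 3.13 and 3.17), which encodes the factor CHOP, Ero1l (3.12, 3.50 and 3.18), the oxidase that recharges disulfide isomerases, Ppp1r15a (2.54, 2.83 and 2.86), which restores translation after PERK, and Trib3 (3.06, 2.91 and 2.49), a target of CHOP. The next 5, Ndrg1, P4ha2, Chchd10, Gtpbp2 and Golgb1 (lowest differences 2.19 to 1.79), were in none of the lists, as were 15 of the first 25 genes. By list, 6 of 15 genes of the PERK and ATF4 branch and 7 of 22 ER chaperones and folding enzymes were over 2-fold higher in all 3 libraries. The others were 3 of 22 genes of the translocon, 1 of 19 of ER-associated degradation, 0 of 16 of the sensors and factors, and 0 of 16 heat shock genes outside the ER.

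**Figure D4:**
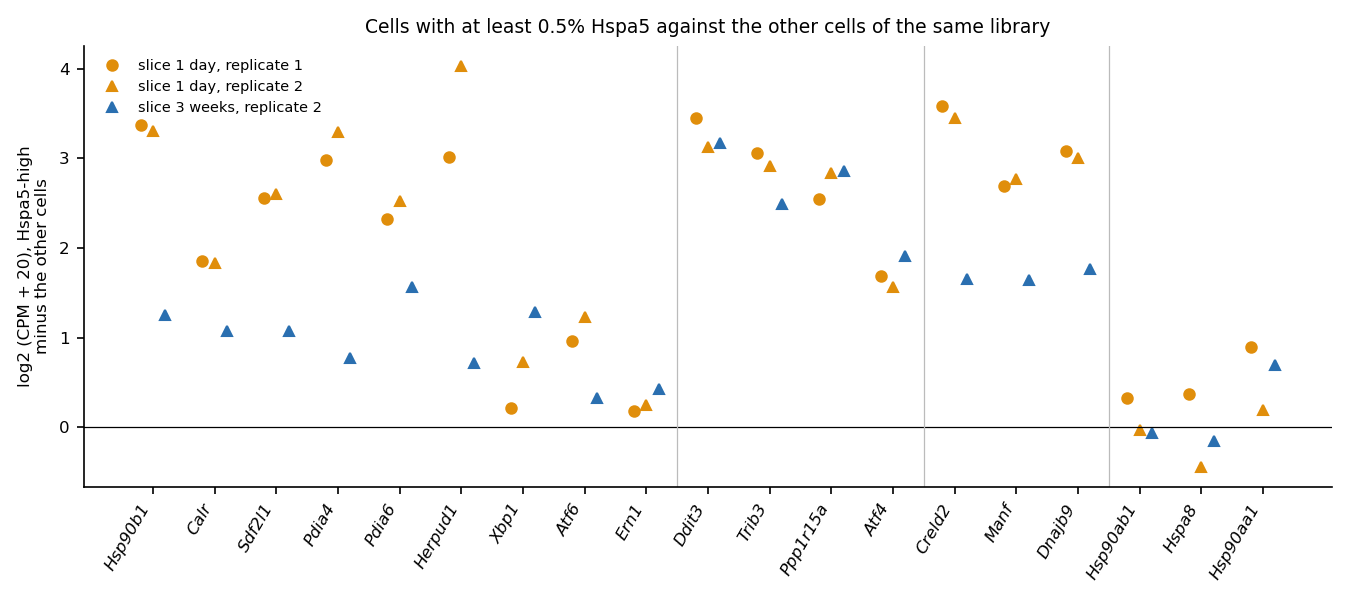
Log2 difference (CPM + 20) between cells with at least 0.5% Hspa5 and the other cells of the same library, for slice 1 day replicate 1 (orange circles), slice 1 day replicate 2 (orange triangles) and slice 3 weeks replicate 2 (blue triangles), with members at the left, then PERK and ATF4 genes, ER chaperones and cytosolic heat shock genes. Ddit3, Trib3 and Ppp1r15a lie at 2.49 or above in all 3 libraries, Creld2, Manf, Dnajb9 and the members from Hsp90b1 to Herpud1 lie higher in both slice 1 day libraries than in the slice 3 weeks library, and Hsp90ab1, Hspa8 and Hsp90aa1 lie between -0.44 and 0.90.

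The sums were also fitted without these cells. They were chosen by Hspa5 and were more frequent at 1 day than in adult or in vitro, so Hspa5, and members that are high with it, must fall at 1 day, and the values say only how much of each sum these cells held. Hspa5 was then at -0.0071 against adult at 1 day (edgeR adjusted p = 0.98) and lower at 1 week (-0.75, adjusted p = 0.0044). Pdia4 was no longer called at 1 day (0.38, adjusted p = 0.093), while Calr was still higher (0.77, adjusted p = 0.020) and Pdia4 was still higher at 1 week (0.80, adjusted p = 0.016). Herpud1 at 1 day was lower still (-2.28 in place of -1.69), and by 3 weeks it was then higher than at 1 day (1.05, adjusted p = 0.0017). Without the cells rich in S100a8 and S100a9, the calls at slice 1 day and slice 1 week against adult did not change (Hspa5 0.68, Calr 0.95 and Pdia4 0.86 at 1 day). Nor did they with the cells that had 2 or more UMIs of the monocyte markers left out as well (Hspa5 0.80, Calr 1.06, Pdia4 0.98 and Herpud1 -1.51 at 1 day).

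The wider ER and stress genes were read from 6 lists written with earlier results of these data known, and their counts stand beside the percentages of all genes called above. In the PERK and ATF4 branch 10 of 15 genes were higher and 2 lower at slice 1 day, 5 and 1 at 1 week, 9 and 0 at 3 weeks, and 3 and 3 in vitro, all against adult. Its genes had a median log2 difference of 1.63 at 1 day, 0.51 at 1 week, 0.997 at 3 weeks and -0.46 in vitro. Without the Hspa5-high cells, 10 were still higher at 1 day (median 1.36) and 9 at 3 weeks (median 0.98). Counted per cell without scaling for depth, 12 were called higher in vitro, with a list median of 1.70 beside 2.04 for all genes. In vitro against slice 1 day 11 genes were lower and 0 higher, and against slice 3 weeks 10 were lower and 0 higher, where 18.6% and 19.9% of all genes were lower. At slice 1 week 1 gene was higher and 0 lower without slice 1 week replicate 1, 0 were lower without adult replicate 1, and 3 were higher in thinned cells. At 1 day 1 was lower without adult replicate 1 or slice 1 day replicate 2. In vitro 5 were higher without either slice 3 weeks library, and 8 were lower with library size alone.

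Atf4 stood at a mean of 57.4 CPM in adult, 159 CPM at 1 day (1.46, SE 0.28, edgeR adjusted p = 0.0013), 115 CPM at 3 weeks (1.00, SE 0.27, adjusted p = 0.015) and 37.9 CPM in vitro (-0.60, adjusted p = 0.081). Ddit3 stood at 35.6 CPM in adult, 89.9 CPM at 1 day (1.33, SE 0.29, adjusted p = 0.0030), 67.7 CPM at 3 weeks (0.93, SE 0.29, adjusted p = 0.025) and 24.4 CPM in vitro (-0.55, adjusted p = 0.13). Eif2ak3, the kinase PERK, was lower at 1 day (-1.18, SE 0.30, adjusted p = 0.0076) and was not called in vitro (-0.51) or at 3 weeks (-0.27). The highest rises of the list at 3 weeks were Trib3 (5.33, SE 0.71), from a mean of 0.726 to 24.97 CPM, Asns (4.88, SE 0.49), asparagine synthetase, from 1.62 to 45.0 CPM, and Chac1 (3.55, SE 0.49), which breaks down glutathione, from 0.679 to 7.65 CPM. Asns was also higher in vitro (2.78, SE 0.49), with Atf3 (1.79) and Atf5 (1.71), whereas Ddit4 (-3.57), Nupr1 (-1.92) and Herpud2 (-0.94) were lower there.

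Of 22 ER chaperones and folding enzymes other than the members, 1 was higher and 4 lower in vitro, 6 and 2 at 3 weeks, 4 and 5 at 1 day, and 2 and 6 at 1 week. In vitro the higher count ran from 0 to 4 over single omissions (4 without either slice 3 weeks library, 3 without adult replicate 1, 2 without in vitro replicate 1, slice 1 day replicate 2 or either slice 1 week library, 0 without adult replicate 2 or in vitro replicate 2) and the lower count reached 11 with library size alone. At 1 week 3 were lower without adult replicate 2 and 2, with 1 higher, without slice 1 week replicate 1, and 2 were lower and 3 higher without the cells bearing neutrophil or monocyte markers. Dnajb9, a cochaperone of BiP and a target of XBP1, was lower in vitro (-1.83, SE 0.16, edgeR adjusted p = 7.6e-06), at 1 day (-1.35, SE 0.17) and at 3 weeks (-1.29, SE 0.16), as was Txndc11 (-1.42 in vitro and -0.79 at 3 weeks). Pdia3, the isomerase that works with calreticulin, was lower in vitro (-0.97, SE 0.16). Dnajc10, a disulfide reductase, was higher in vitro (0.63) and at 3 weeks (1.27). Ero1l (4.19, SE 0.72) rose at 3 weeks to 102 ± 87.4 CPM (SD, n = 2), and so did P4hb (1.51, SE 0.19), an isomerase that pairs with it.

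Of 19 genes of ER-associated degradation, 8 were lower and 0 higher in vitro, 1 and 0 at 3 weeks, 6 and 1 at 1 day, and 5 and 2 at 1 week. Over other settings scaled for depth the lower count was 6 to 12 in vitro, 1 to 6 at 3 weeks and 4 to 10 at 1 week, with the highest of each under library size alone, and 2 were lower at 3 weeks without adult replicate 1 or either slice 3 weeks library. At 1 week 3 were lower and 0 higher without slice 1 week replicate 2, and 1 was higher without slice 1 week replicate 1 or adult replicate 2. The higher count at 1 day was 2 without any 1 library of slice 1 week or slice 3 weeks. Edem2 (-2.08, SE 0.15), a mannose-trimming factor, Vimp (-1.30, SE 0.13) and Erlec1 (-0.97, SE 0.18) were lowest in vitro, and Vimp was the gene that was lower at 3 weeks (-1.04, SE 0.13, edgeR adjusted p = 0.00018). Of 22 genes of the translocon and signal peptide processing, 4 were higher and 7 lower in vitro, 7 and 0 at 3 weeks, 6 and 1 at 1 day, and 4 and 4 at 1 week. Without in vitro replicate 2, 4 were lower in vitro, and with library size alone 11. At 1 week 2 were higher and 0 lower without slice 1 week replicate 1. Sec61b (1.41), Srp14 (1.32) and Sec61g (1.07) were higher in vitro and the glycosylation genes Rpn2 (-0.92) and Ddost (-0.84) and the receptor subunit Srpr (-0.91) lower. At 3 weeks Ssr3 (1.14), Ssr4 (1.10) and Sec63 (1.08) were higher.

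Of 16 other sensors, proteases and factors of the response, 4 were higher and 8 lower in vitro, 3 and 3 at 3 weeks, 4 and 5 at 1 day, and 5 and 4 at 1 week. The lower count in vitro was 5 without adult replicate 1 or either in vitro replicate, and the higher count at 3 weeks was 5 without slice 3 weeks replicate 1. At 3 weeks 6 were lower with library size alone. At 1 day 3 were lower without adult replicate 1 or slice 1 day replicate 2. At 1 week 2 were higher without slice 1 week replicate 1 and 3 without slice 1 week replicate 2, and 2 were lower without either adult library, either slice 1 week library or slice 1 day replicate 2. In cells thinned to 1800 UMIs, 4 were lower in vitro, 1 at 3 weeks and 1 at 1 week, where 2 were higher. Creb3l1 (2.02) and the cell death genes Bax (1.57) and Bak1 (1.18) were higher in vitro, and Creb3l2 (-1.86), Tmbim6 (-1.03), an inhibitor of IRE1, and Wfs1 (-1.02) lower. At 3 weeks Creb3l1 (1.41), Bax (0.89) and Rtcb (0.65), the ligase that joins spliced Xbp1, were higher, and Map3k5 (-1.33), Traf2 (-0.70) and Atf6b (-0.62) lower. Heat shock genes, which answer misfolding outside the ER, were counted for contrast. Most of this list is cytosolic, but its Hspd1 and Hspe1 encode mitochondrial chaperones. Of 16, 10 were higher and 2 lower in vitro, 7 and 1 at 3 weeks, 10 and 1 at 1 day, and 4 and 1 at 1 week, with a list median of 0.77 in vitro. With library size alone 4 were higher at 3 weeks, and without adult replicate 2 the counts were 3 lower at 3 weeks and 2 higher at 1 week. At 1 week 0 were lower without adult replicate 2 or either slice 1 week library. Hsp90ab1 rose from a mean of 263 CPM in adult to 791 CPM in vitro (1.59, SE 0.22, edgeR adjusted p = 0.00014) and 656 CPM at 3 weeks (1.32, SE 0.22). Hspb1 (1.55) and Hsph1 (1.48) also rose in vitro, Hsp90aa1 (0.99) and Hspe1 (0.92) rose at 3 weeks, and Cryab (-4.08) and Hsf1 (-1.19), the main heat shock factor, were lower in vitro. Hsf1 was lower at 3 weeks too (-1.16, SE 0.18).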

How the data were processed

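Single microglia, sorted from adult mouse brain, from in vitro mixed glia or from slices at 3 culture times, were profiled with 10x Genomics 3' libraries. Per the submitters' processing notes, the authors used Cell Ranger 1.3.0 and the mouse build mm10, and the tables they deposited hold UMI counts, not normalized, with genes against cell barcodes for each library. A barcode was kept at 5% mitochondrial UMIs or less, at least 400 genes and at most 30000 UMIs, which removed 578. The study also removed outlier cells on a t-SNE map, a step not repeated here. It states fewer cells for slice 1 week than the 148 and 61 kept here. Its range for the other samples also ends below the cells kept for both adult libraries and for slice 3 weeks replicate 2. A gene missing from a table was taken as 0, and repeated symbols were summed. Counts were summed over cells per library and fitted in R 4.3.3 with edgeR 4.0.16 (glmQLFit, TMM, filterByExpr with a minimum of 10 counts) in a single model of 10 libraries, after tests on simulated data. The study calls the libraries of a group independent samples, without saying whether they were separate animals or cultures, so p-values measure the spread between these libraries. The labels name 2 studies, with replicate 1 of adult and of slice 3 weeks in the first and 8 libraries in the second. Fold changes of 1.5 and an adjusted p of 0.05 were the limits. DESeq2 1.42.0, other scalings, thinning to 1800 UMIs and single omissions were alternatives, and removing Hspa5-high cells, cells rich in S100a8 and S100a9 or both slice 1 week libraries was chosen after seeing the data. No doublet caller was run. The 10 genes and the gene lists were chosen with earlier results of these data known. Named genes are the 10 members, Atf4, Ddit3 and Eif2ak3, and up to 3 called genes in each direction per list for in vitro and slice 3 weeks against adult. In the comparison of Hspa5-high cells, the first genes by rank were named, and C1qa, Csf1r and Tmem119 were singled out after their values were seen. Promoter sequences are from RefSeq and gene positions from GENCODE M21. Python 3.11.15 was used for cells, sequences and plots.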

Additional observations from a re-analysis of the deposited data

Results flagged for a closer look

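Adult and slice 3 weeks each had 1 library under each of 2 study labels, and for 4 genes the difference between slice 3 weeks and adult had opposite signs under the labels, which was not tested. The log2 difference was -0.17 under the first label and 0.99 under the second for Atf6, 0.62 and -0.26 for Sdf2l1, -0.15 and 0.44 for Ern1, and 0.091 and -0.025 for Hspa5. For the other 6 genes the signs matched, with Herpud1 at -1.01 and -1.44, Xbp1 at -0.76 and -1.07, and Calr at 0.56 and 0.63. Each value compares 1 library with 1 library and has no replicate check.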

How the results depend on the processing

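Over 7 comparisons and all alternatives, 84 of 1600 fold changes of single genes changed sign. The pairs of slice 1 week with another cultured group are not among the 7, and how their calls depend on the processing is not given. In 24 of them the gene was called before or after the change, 22 when counts were taken per cell and 2 without the Hspa5-high cells. The other 60 were called in neither setting, 15 of them per cell, 20 without 1 library and 25 under other alternatives. Per cell, the 22 with a call were positive, against adult, in vitro for Ern1 (2.04), Atf6 (1.83), Xbp1 (1.37), Hspa5 (1.90), Hsp90b1 (1.91), Sdf2l1 (1.73), Pdia4 (0.96) and Pdia6 (1.499), at 1 day for Ern1 (1.25), Xbp1 (0.93) and Pdia6 (1.35), at 1 week for Xbp1 (0.51), Hsp90b1 (1.05), Sdf2l1 (1.09) and Pdia6 (0.48), and at 3 weeks for Xbp1 (0.21) and Pdia4 (0.96). In vitro against slice 3 weeks they were Atf6 (0.25), Sdf2l1 (0.37), Pdia4 (0.0010) and Pdia6 (0.95), and against slice 1 day Sdf2l1 (0.0090). Without the Hspa5-high cells, Hspa5 was -0.0071 at 1 day and -0.75 at 1 week.

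These counts of members called moved by over 1.5 times. Smaller moves included 6 lower in vitro against adult and 5 against slice 3 weeks with library size alone, 2 higher at 1 day with library size alone or the study label, and 3 lower at 3 weeks with library size alone, the study label or without the Hspa5-high cells. Per cell and against adult, the higher and lower members were 9 and 0 (in vitro), 9 and 0 (1 day), 5 and 0 (1 week) and 7 and 0 (3 weeks). On that scale the median of all genes was also above adult in every cultured group, as given earlier. These counts alone therefore do not set the members apart from other genes. The same counts for in vitro were 2 and 0 against slice 3 weeks, with 1 lower against slice 1 day, and 2 lower at 3 weeks against 1 day. At 1 day against adult, 1 was lower in place of 2 with DESeq2 size factors, the DESeq2 test, all barcodes, thinned cells or without both slice 1 week libraries, and 1 was higher without the Hspa5-high cells. At 3 weeks against adult, 1 was higher with DESeq2 size factors, the DESeq2 test, the study label as covariate (each time Calr) or without the cells rich in S100a8 and S100a9, with or without those bearing monocyte markers, and 2 with no filter on low genes. The study label gave 1 higher in vitro and 2 higher at 1 week, and thinning gave 0 higher at 1 week. In vitro against slice 1 day, 7 were lower with library size alone and 1 without the Hspa5-high cells. At 3 weeks against 1 day, 2 were lower with library size alone, the DESeq2 test, thinned cells, the study label, without the cells bearing neutrophil or monocyte markers or without both slice 1 week libraries, and without the Hspa5-high cells 1 was higher and 0 lower. Apart from the construction of each alternative, the cause was not tested.

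Leaving out each library in turn, the counts of members higher and lower against adult ran from 0 to 1 and 3 to 4 (in vitro), 1 to 3 and 1 to 2 (1 day), 1 to 1 and 2 to 3 (1 week), and 0 to 1 and 2 to 3 (3 weeks). They ran from 0 to 0 and 2 to 4 in vitro against slice 3 weeks, 0 to 0 and 1 to 4 in vitro against slice 1 day, and 0 to 1 and 1 to 2 at 3 weeks against 1 day. A lone library was assumed to vary like the other groups. In these 700 values 0 called fold changes reversed, but 20 that were not called, over 6 genes, changed sign, among them Atf6 at 3 weeks (0.56 to -0.074 against adult and 0.29 to -0.39 against 1 day, both without slice 3 weeks replicate 2), Hspa5 at 1 week (0.20 to -0.22 without slice 1 week replicate 1) and Ern1 at 1 day (-0.27 to 0.22 without slice 1 day replicate 2). The replicate numbers did not pair libraries (correlations of -0.086 to 0.082), and with the replicate number as a block the counts were 0 and 4 in vitro and 3 and 2 at 1 day, as without it. For the PERK and ATF4 list at 1 day, 10 to 11 genes were higher under every alternative scaled for depth. Depth limits Ern1 and Atf6 most, and slice 1 week, with 61 and 148 cells, most of all groups.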
